A study of Sus scrofa with 12 samples.

Results

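The miR-10, miR-99, miR-100 and miR-125 group was taken as every mature microRNA (miRNA) of the deposited tables whose name was miR-10a, miR-10b, miR-99a, miR-99b, miR-100, miR-125a or miR-125b, with any arm. This gave 8 of 326 mature names: miR-10a-5p, miR-10a-3p, miR-10b, miR-99a, miR-99b, miR-100, miR-125a and miR-125b. They were measured in mesenchymal stem/stromal cells (MSC) from the abdominal fat of female domestic pigs aged 3 months, and in the extracellular vesicles (EV) that the same cells released. The cells were untreated, were grown at passage 3 in medium with platelet lysate, and the EV were pelleted from their supernatants by ultracentrifugation. Each group had 3 small-RNA libraries (and 3 mRNA libraries), 1 for each pig, and replicates 1, 2 and 3 are the pigs in label order. The MSC are a primary culture and not a clone, the EV are a pellet that may also hold other particles of the medium, and every pig was female and untreated, so no group differs in sex or treatment.

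A miRNA is a short RNA that guides an Argonaute protein to matching sites in mRNAs and lowers their translation or stability. The genes of miR-99, miR-100, miR-125 and let-7 lie together in clusters that are conserved across animals, while the miR-10 genes lie inside the HOX clusters that pattern the body axis. The group is known to be abundant in mesenchymal cells, with mTOR and other growth pathway genes as described targets of miR-99 and miR-100, HOX genes as targets of miR-10, and LIN28 and apoptosis genes as targets of miR-125.

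The pig genes keep this arrangement in the RefSeq annotation of assembly Sscrofa11.1, in which 7 of the 8 precursors were found by name. MIR125B-1, MIRLET7A-1 and MIR100 follow each other on one chromosome, MIR125A, MIRLET7E and MIR99B on another, and MIR99A is next to MIRLET7C. MIR10A lies between HOXB3 and HOXB5, with 1 unnamed locus on the HOXB5 side, and MIR10B is next to HOXD3. The second miR-125b precursor, mir-125b-2, had no match by name.

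The small-RNA libraries differed in depth, with 9455607 to 15395871 counts in MSC and 656888, 19454 and 18374 counts in EV replicates 1, 2 and 3. A count of 0 thus allows up to 4.57, 154 and 163 CPM (counts scaled to a library total of 1000000) in those 3 EV libraries, since up to 3 counts may be missed. With 1 entry kept per mature name, miR-21 alone took 74.4% of the counts in MSC replicate 3, against 28.8% and 33.5% in the other MSC libraries and 8.19% to 13.6% in EV. The titles of the small-RNA pair of replicate 3, MSC and EV alike, carry an extra label that no other pair has. EV replicate 3 had miR-92a as its most abundant miRNA (11.5% of its counts on the same basis), where the other EV libraries had miR-148a-3p (25.4% and 25.0%). The mRNA libraries held 10429085 to 12276855 reads on genes, and the MSC markers CD44, NT5E (CD73) and ENG (CD105) were detected in all 6, while THY1 (CD90) was listed at 0 under its own entry, which shares its span with an entry that held 49577 reads.

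Together, the 8 miRNAs took 7.24% to 15.3% of a library, with overlapping ranges in MSC and EV. With 1 entry kept per mature name, they held 13.0%, 10.2% and 7.24% of the counts on all miRNAs in MSC replicates 1, 2 and 3. CPM is scaled to all entries instead. In EV, the shares were 15.3% (exact 95% binomial interval 15.2 to 15.4), 11.6% (11.2 to 12.1) and 14.0% (13.5 to 14.6), intervals that cover counting error only. MSC replicate 1 lay among the EV values, so the groups overlapped. With all entries of a name summed, the shares were 12.3%, 9.81% and 7.30% in MSC and 14.1%, 10.7% and 12.8% in EV. That gave a difference of 0.37 on the log2 scale (p = 0.2, exact permutation test). With 1 entry per name, the mean share was 13.6% ± 1.86 in EV and 10.1% ± 2.86 in MSC (SD, n = 3 each), a difference of 0.46 on the log2 scale. A two-sided exact permutation test gave p = 0.2, and with 3 against 3 libraries it cannot give less than 0.1. The direction depended on miR-21: when its counts were left out of the totals, the shares were 18.2%, 15.3% and 28.3% in MSC and 17.7%, 12.9% and 15.2% in EV, a difference of -0.39 (p = 0.2, exact permutation test). In these bulk libraries, fewer cells of a type and less RNA per cell cannot be told apart, nor can a lower amount of 1 miRNA and a higher amount of the others.

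**Figure D1:**
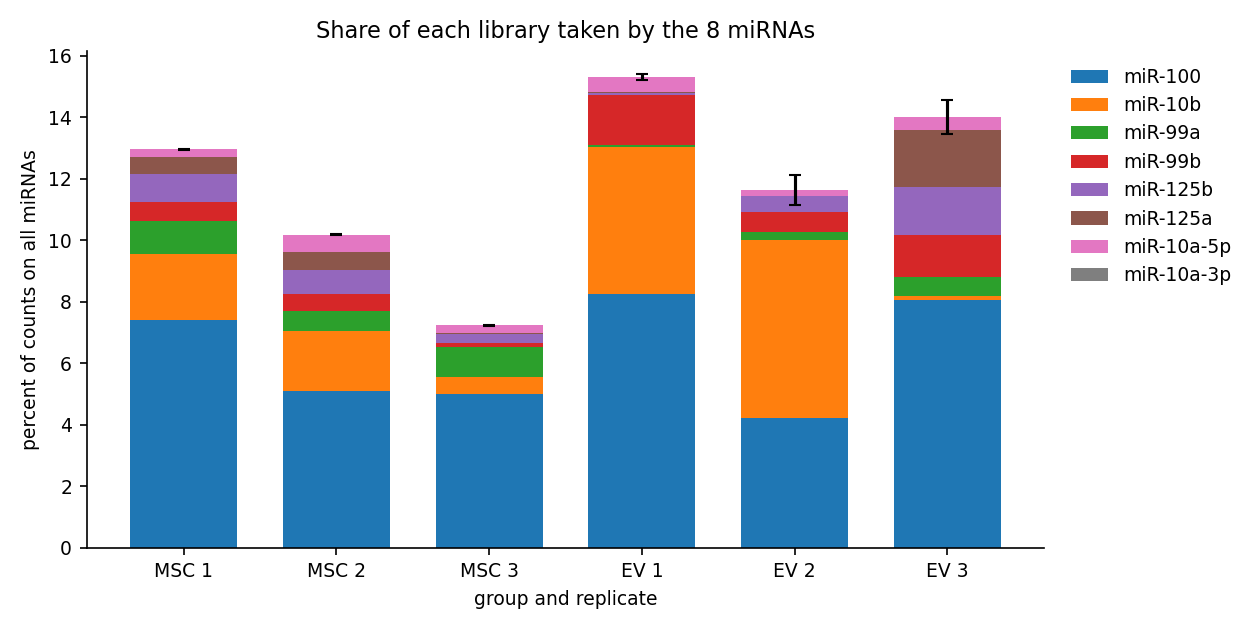
Percent of the counts on all miRNAs (y axis) taken by each of the 8 miRNAs (colours) in each small-RNA library (x axis), stacked, with the exact 95% binomial interval of the sum as a black bar. miR-100 is the largest block in 5 of the 6 libraries, and miR-10b is the largest in EV replicate 2.

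miR-100 was the largest part of this share in 5 of 6 libraries, and miR-10b in EV replicate 2. miR-100 took 57.1%, 50.2% and 69.0% of the group's counts in MSC replicates 1, 2 and 3, and 53.9%, 36.2% and 57.5% in EV. Its rank among all miRNAs was 3, 3 and 2 in the MSC libraries and 4, 7 and 4 in the EV libraries. The share of miR-10b varied far more, at 16.6%, 18.9% and 7.77% of the group in MSC and 31.4%, 49.7% and 0.964% in EV.

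Differences of single miRNAs between EV and MSC were tested with edgeR's quasi-likelihood test over the 220 miRNAs that passed its filter on low counts, and all 8 members passed. With a fold change over 2 and a Benjamini-Hochberg adjusted p-value under 0.05, 0 members were higher and 0 were lower in EV, as were 0% and 0% of all miRNAs tested in each direction. By the thresholds of the study (fold change over 2, unadjusted p-value under 0.05), 0 members were higher, against 6.36% of all miRNAs, and 2 of 8 were lower, miR-99a and miR-10a-3p, against 24.1% of all miRNAs. With the pig as a block in the fit, 0 members passed these thresholds in either direction. After adjustment, DESeq2 also called 0 in either direction, and limma on log2(CPM + 1) called 1 lower, miR-10a-3p, whose EV counts were 0 in every library. Single libraries decided these counts: without EV replicate 3, edgeR called 1 member higher and 2 lower after adjustment. The median log2 fold change of the 243 miRNAs tested in that fit was -6.39. By the unadjusted thresholds 0 were lower without MSC replicate 3 or EV replicate 1, and 1 without MSC replicate 1 or 2. The shares of all miRNAs called in these alternative fits are not given here, so their counts of members have no background. In the main fit on all 6 libraries, the median log2 fold change was -0.77 over the members and -0.999 over all miRNAs tested. The zero of this scale thus lies above the typical miRNA. Without scaling factors, the median of all miRNAs was 0.00, and with upper quartile factors it was -0.03, so each fold change is also given relative to that median, over the 4 scalings tried. The median also depends on the filter: over the 39 miRNAs with at least 10 counts in every library it was 0.54. In that fit miR-99b (0.53) and miR-10b (0.41) were no higher than the median. There miR-100, miR-125b, miR-10a-5p and miR-99a were at -1.19, -1.24, -1.29 and -3.34.

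**Figure D2:**
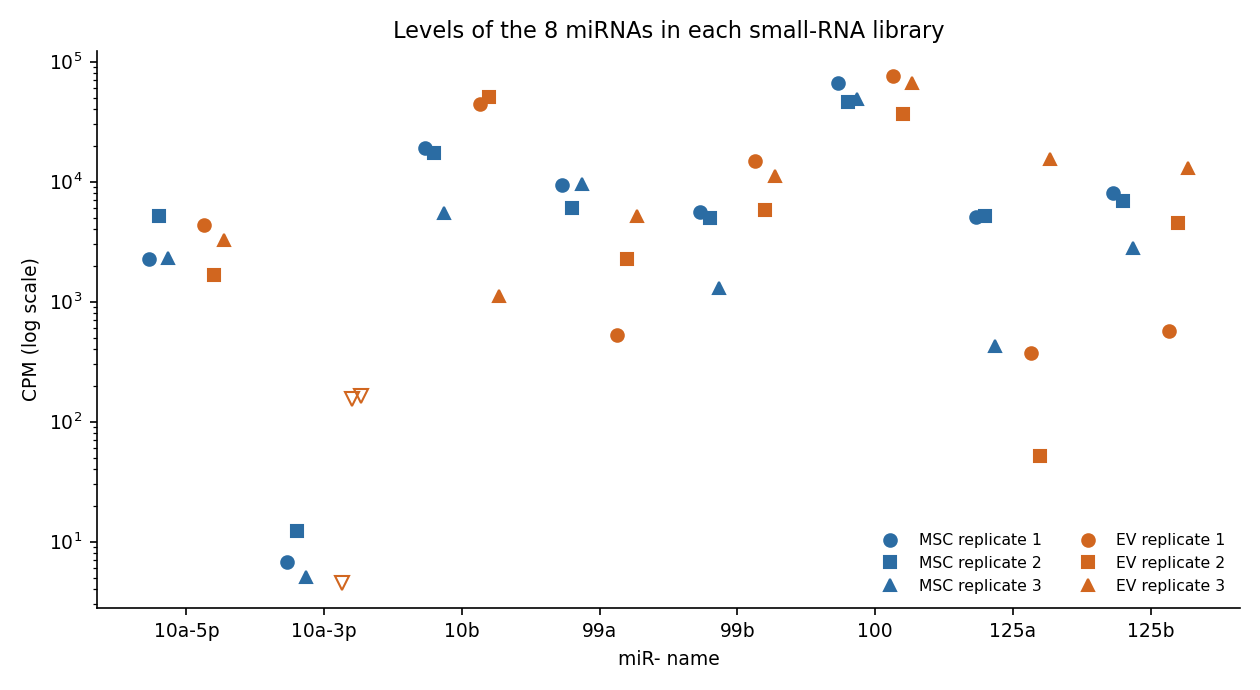
CPM on a log scale (y axis) of each of the 8 miRNAs (x axis) in each small-RNA library, MSC in blue and EV in orange, with 1 symbol per pig. Open triangles are not values but the level that 3 counts would give in an EV library where miR-10a-3p had 0 counts. miR-100 is the highest in 5 of the 6 libraries, and the EV symbols of miR-10b and miR-125a spread most.

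Of the miR-10 family, miR-10b was the more abundant member in 5 of 6 libraries, and its EV values split between libraries. With 1 EV library per pig, and an extra title label on the pair of replicate 3, pig and library cannot be told apart. It was measured at 19217, 17332 and 5472 CPM in MSC replicates 1, 2 and 3, and at 44227, 50865 and 1116 CPM in EV, the last from 20.5 counts. EV replicates 1 and 2 lay above every MSC library and EV replicate 3 below every one, with 45.6-fold between the highest and the lowest EV library, against 3.51-fold in MSC. The log2 fold change was 1.25 ± 1.37 (SE), with an adjusted p-value of 0.598 from edgeR's quasi-likelihood test. Without EV replicate 3 it was 1.68 with an adjusted p-value of 0.0167 from the same test, against a median of -6.39 over the 243 miRNAs then tested. Relative to the median of all miRNAs, miR-10b lay 1.21 to 3.21 higher over the 4 scalings. It was not higher among the 39 miRNAs with at least 10 counts in every library (0.41, against a median of 0.54).

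miR-10a-5p, the main product of the other miR-10 gene, showed no such split. It was measured at 2261, 5157 and 2294 CPM in MSC and at 4345, 1671 and 3293 CPM in EV, so the groups overlapped. The log2 fold change was -0.74 ± 0.91 (SE), with an adjusted p-value of 0.633 from edgeR, and relative to the median of all miRNAs it was -0.09 to 0.81 over the 4 scalings. With upper quartile factors the fold change itself turned positive, at 0.78.

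The opposite arm of that precursor, miR-10a-3p, was detected in MSC, at levels near or below the limit of detection of the EV libraries. It had 105, 179 and 48 counts in MSC replicates 1, 2 and 3, or 6.82, 12.2 and 5.08 CPM, and 0 counts in each EV library. At the mean CPM of the MSC, the EV libraries would have held 5.27, 0.156 and 0.147 counts, so only EV replicate 1 was deep enough to show a lower level. Taking 3 counts over the pooled EV libraries as the limit (4.32 CPM, against 8.39 CPM in the pooled MSC), the pooled level was at least 1.94-fold lower in EV. This bound rests almost wholly on EV replicate 1 and covers counting error, not the spread between pigs. MSC replicate 3, at 5.08 CPM, lay close to the limit. Its edgeR fit had an unadjusted p-value of 0.00946 and an adjusted p-value of 0.0813, and the fitted fold change of a miRNA at 0 is no bound. In MSC, the 3p arm amounted to 0.00302, 0.00236 and 0.00221 of the 5p arm, a ratio that varied little between pigs.

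Within the miR-99/100 family, the members went different ways. miR-100 was measured at 66150, 45917 and 48578 CPM in MSC and at 75961, 37011 and 66614 CPM in EV, with 2.05-fold between the EV libraries, the narrowest EV range of the 7 members with counts in EV. Its groups overlapped, and the log2 fold change was -0.67 ± 0.82 (SE; adjusted p = 0.633, edgeR). The sign of that value depended on the scaling, since it was 0.23 without scaling factors and 0.91 with upper quartile factors.

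miR-99a was the abundant member with the lowest EV levels relative to MSC. It was measured at 9463, 6069 and 9547 CPM in MSC replicates 1, 2 and 3, and at 527, 2262 and 5170 CPM in EV, from 346, 44 and 95 counts. Every EV library was below every MSC library, as for 23.6% of the 220 miRNAs tested. The log2 fold change was -3.03 ± 1.06 (SE), with an unadjusted p-value of 0.0232 and an adjusted p-value of 0.101 from edgeR's quasi-likelihood test. With the pig as a block the value was -2.99 (unadjusted p = 0.0503, adjusted p = 0.615, edgeR), and with 1 library left out it ranged from -3.65 to -2.06. Without EV replicate 3 it was -3.30, which is above the median of -6.39 over all miRNAs then tested. Relative to the median of all miRNAs, miR-99a lay 1.06 to 2.14 lower over the 4 scalings, on the log2 scale. The size of the difference depended on the scaling, and it no longer passed the unadjusted threshold with RLE factors (-2.63, unadjusted p = 0.0517, edgeR), without scaling factors (-1.53, unadjusted p = 0.264, edgeR), with upper quartile factors (-1.09, unadjusted p = 0.443, edgeR) or with limma on log2(CPM + 1) (-2.16, unadjusted p = 0.0818). It also passed neither without MSC replicate 3 (-2.06, unadjusted p = 0.0878, edgeR) nor without EV replicate 1 (-2.69, unadjusted p = 0.0636, edgeR).

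miR-99b, from the cluster with miR-125a and let-7e, was placed the other way. It was measured at 5609, 4962 and 1290 CPM in MSC and at 14943, 5860 and 11266 CPM in EV, from 9816, 114 and 207 counts. All 3 EV values exceeded all 3 MSC values, as for 6.82% of the miRNAs tested, so the EV library was necessarily the higher in 3 of 3 pigs. After TMM scaling (edgeR's correction for unequal composition of libraries), the groups overlapped, and the EV library was the higher in 2 of 3 pigs. The log2 fold change with that scaling was 1.10 ± 0.80 (SE, adjusted p = 0.424, edgeR). Relative to the median of all miRNAs it lay 1.48 to 2.53 higher over the 4 scalings. It was not higher among the 39 miRNAs with at least 10 counts in every library (0.53, against a median of 0.54). After TMM scaling, miR-99a and miR-125b were below the MSC range in each EV library, as were 38.2% of all miRNAs tested, and 0 members were above it, against 4.09% of all. For miR-99a and miR-99b, the exact permutation test on log2(CPM + 1) gave p = 0.1, its smallest value. The 0 counts of miR-10a-3p were left out of this comparison, since EV replicates 2 and 3 were too shallow to hold a count at the MSC level.

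The miR-125 family had the widest spread between EV libraries. miR-125a was measured at 5034, 5164 and 425 CPM in MSC replicates 1, 2 and 3, and at 376, 51.4 and 15347 CPM in EV, from 247, 1 and 282 counts. EV replicate 3 was above, and EV replicates 1 and 2 below, every MSC library, with 299-fold between the highest and the lowest EV library and 12.2-fold between the MSC libraries. The EV value of replicate 2 rests on 1 count, a share of 0.00585% of the library with an exact 95% interval of 0.000148% to 0.0326%. The log2 fold change was -0.81 ± 1.43 (SE; adjusted p = 0.769, edgeR). It was 0.12 with the RLE factors of DESeq2, 0.69 without scaling factors, 0.01 without MSC replicate 1 and 0.15 without MSC replicate 2. Without EV replicate 3 it was -3.68 with an adjusted p-value of 0.0497 from edgeR, which lay above the median of -6.39 over all miRNAs then tested.

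miR-125b, which pigs make from a pair of precursor genes, followed the same order of EV libraries in part. In the table it had 2 precursor entries with nearly equal values, because reads that matched both had been shared between them, so a single entry holds only part of its reads. From the larger entry, it was measured at 8091, 6921 and 2799 CPM in MSC and at 569, 4549 and 12980 CPM in EV, from 374, 88.5 and 238.5 counts. The sums of both entries were 15674, 13505 and 5417 CPM in MSC and 1023, 9099 and 24817 CPM in EV. The groups overlapped, with the lowest and the highest values both in EV and 22.8-fold between them. The log2 fold change was -0.99 ± 0.94 (SE; adjusted p = 0.536, edgeR), which was 0.13 without scaling factors and 0.83 with upper quartile factors.

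The order of the members by mean CPM was miR-100, miR-10b, miR-99a, miR-125b, miR-99b, miR-125a, miR-10a-5p and miR-10a-3p in MSC. Only miR-100 over miR-10b and miR-10a-5p over miR-10a-3p did not overlap with the next in order. With the entries of miR-125b summed, miR-125b stood before miR-99a, and miR-99a did not overlap with miR-99b. In EV the order of the single entries was miR-100, miR-10b, miR-99b, miR-125b, miR-125a, miR-10a-5p and miR-99a, and every neighbouring pair overlapped, while miR-10a-3p had 0 counts. CPM compares levels between miRNAs without regard to how well each was ligated and amplified, so this order describes reads.

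**Figure D3:**
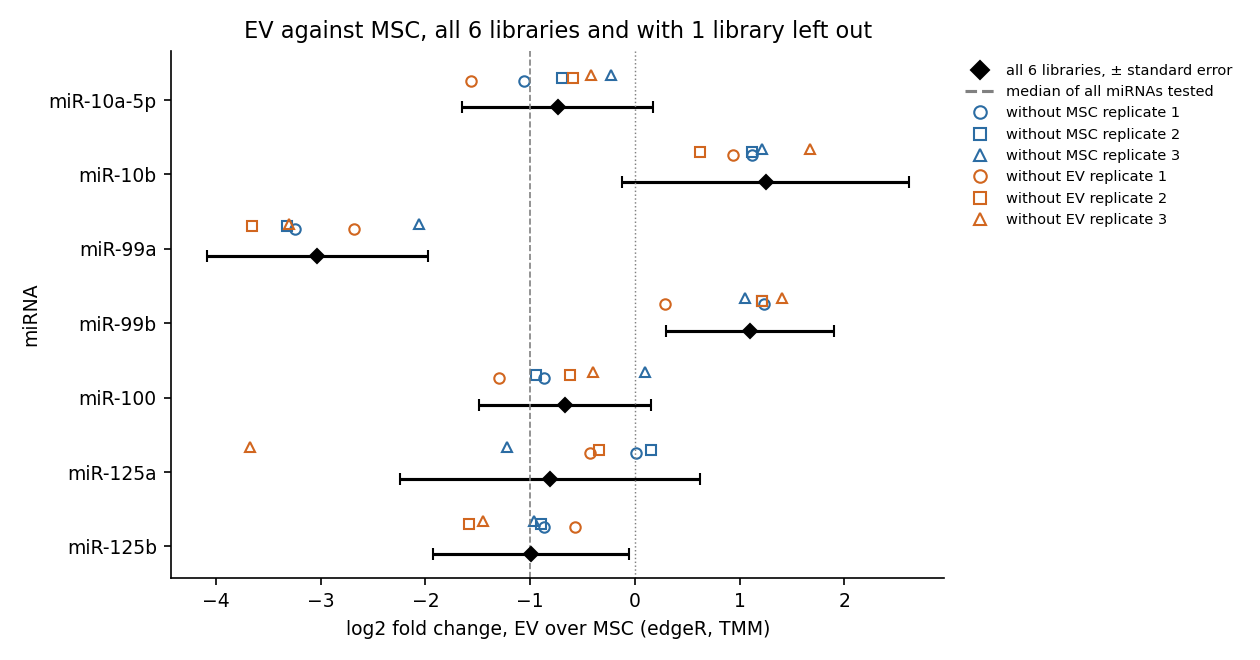
log2 fold change of EV over MSC (x axis, edgeR with TMM scaling) for the 7 members with counts in EV (y axis). Black diamonds with bars are the fit on all 6 libraries ± SE, open symbols are the fits without 1 library, and the dashed line is the median of all 220 miRNAs tested (-0.999). miR-99a lies between -3.65 and -2.06 in the 6 fits without 1 library, and miR-125a moves to -3.68 without EV replicate 3. The line belongs to the fit on all libraries, and without EV replicate 3 the median was -6.39.

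Where libraries of EV disagreed, markers of other cells also differed. The 6 miRNAs listed as blood cell or platelet markers (miR-142-3p, miR-142-5p, miR-144, miR-150, miR-451 and miR-486) summed to 1.75 to 16.4 CPM in MSC, while the EV libraries of the 3 pigs held 41.9, 0 and 2585 CPM in label order, with 47.5 counts behind the last value. In EV, 4 of these 6 names had a count in at least 1 library, and miR-142-5p and miR-144 were at 0. Nearly all of the sum in EV replicate 3 was miR-486 (2449 CPM, 45 counts). miR-142-3p, miR-451 and miR-150 held 1, 1 and 0.5 counts there, and miR-223, also planned as a marker, had no entry. miR-126, the endothelial miRNA (both arms), was at 78.1 to 113 CPM in MSC and at 0, 0 and 1252 CPM in EV, and the liver miRNA miR-122 was at 3.28 to 60.9 CPM in MSC and at 3.04, 0 and 435 CPM in EV. The 5 muscle miRNAs summed to 4.35 to 147 CPM in MSC and to 123, 0 and 0 CPM in EV, with 4 of the 5 at 0 in every EV library. Those 4 averaged 0.15 to 3.53 CPM in MSC, less than a count of 0 allows in any EV library (4.57, 154 and 163 CPM). In EV replicate 2, a 0 allows up to 154 CPM per name, which is above all MSC values of these 4 lists. Its zeros thus do not show a lower level. EV replicate 3 also differed beyond these markers, with a count for 187 miRNA names, against 128 and 79 in EV replicates 1 and 2. Its TMM factor was 3.24, against 0.893 and 0.813 in those libraries, and MSC replicate 3 had 0.306, against 1.18 and 1.17. EV replicate 3, in which miR-125a and miR-125b were highest and miR-10b lowest, was also the EV library with the most miR-486, miR-126 and miR-122. These values rest on 45, 23 and 8 counts, and the part of these miRNAs in the result was not tested.

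Ratios between members of the same library do not depend on how libraries are scaled. Of the 7 pairs considered between members, 5 had over 3 counts of both members in every library and were tested. The ratio of miR-99a to miR-100 was 0.143, 0.132 and 0.197 in MSC replicates 1, 2 and 3, and 0.00693, 0.0611 and 0.0776 in EV. Each EV library was below each MSC library, with a difference of -2.27 in the mean log2 ratio. The two-sided exact permutation test gave p = 0.1, the smallest value possible (0.25 adjusted over the 5 ratios). The ratio was lower in EV in 3 of 3 pigs, which follows from the lack of overlap. Leaving out 1 library moved the difference between -2.91 and -1.17, the latter without EV replicate 1.

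The ratio of miR-99b to miR-99a showed the widest separation of the 5. It was 0.593, 0.818 and 0.135 in MSC, where miR-99a was the higher in each library, and 28.4, 2.59 and 2.18 in EV, where miR-99b was the higher in each library. The difference in mean log2 ratio was 3.75, without overlap (p = 0.1, exact permutation test, 0.25 adjusted), and it was 2.56 to 4.41 with 1 library left out. The direction was the same in 3 of 3 pigs, which follows from the lack of overlap. miR-99a, miR-99b and miR-100 are close relatives, and reads that match several precursors are shared in fractions in these counts. The counts of miR-99b were whole in every library. Those of miR-99a and miR-100 were whole except in MSC replicate 1 (145692.5 and 1018436.5). Whole counts alone do not exclude sharing.

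Pairs with miR-125b behaved less evenly. The ratio of miR-99a to miR-125b was 1.17, 0.877 and 3.41 in MSC and 0.925, 0.497 and 0.398 in EV, lower in EV in 3 of 3 pigs but with overlapping groups (difference -1.42, p = 0.2, exact permutation test, 0.333 adjusted). The ratio of miR-100 to miR-125b, which share a cluster through MIR125B-1, was 8.18, 6.63 and 17.4 in MSC and 133, 8.14 and 5.13 in EV (difference 0.85, p = 0.9, exact permutation test). EV replicate 1 alone gave the last difference its sign, which was -0.60 without it.

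For the miR-10 pair the ratio turned around in 1 library. miR-10a-5p over miR-10b was 0.118, 0.298 and 0.419 in MSC, and 0.0982, 0.0328 and 2.95 in EV (difference -0.21, p = 0.9, exact permutation test). Only in EV replicate 3 did miR-10a-5p exceed miR-10b, and without that library the difference was -2.11. For 2 further pairs, miR-125a had a single count in EV replicate 2, and they were not tested. miR-125a over miR-125b was 0.622, 0.746 and 0.152 in MSC and 0.660, 0.0113 and 1.18 in EV, and miR-99b over miR-125a, its cluster neighbour, was 1.11, 0.961 and 3.04 in MSC and 39.7, 114 and 0.734 in EV.

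**Figure D4:**
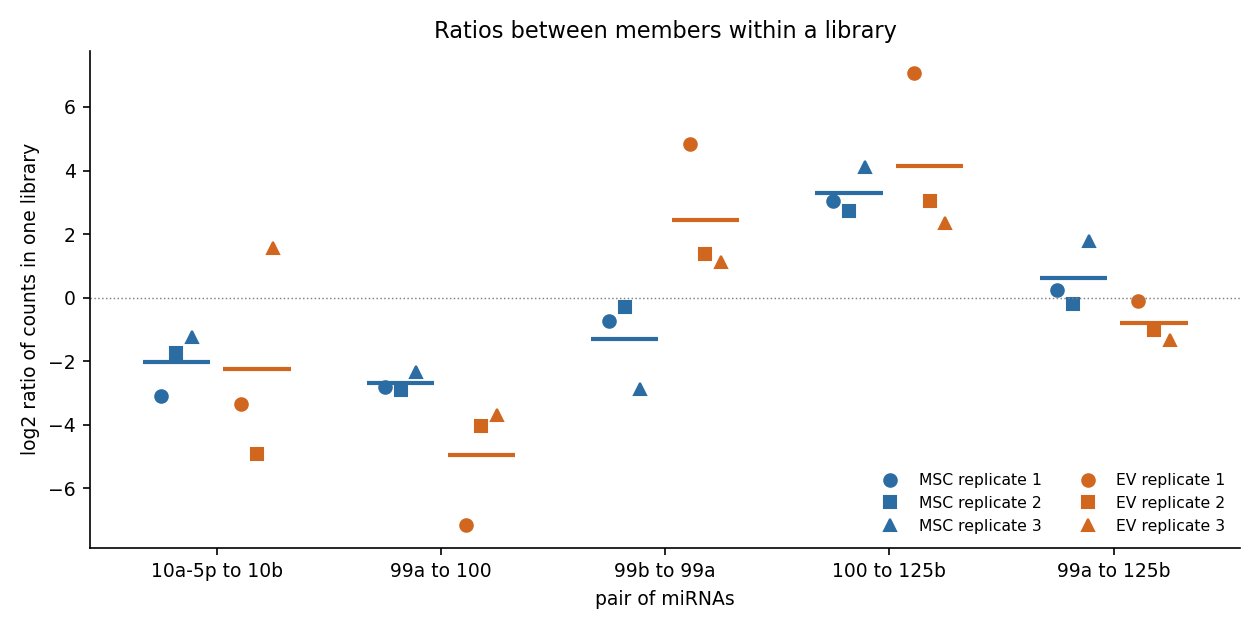
log2 ratio of the counts of 2 members in the same library (y axis) for the 5 pairs tested (x axis), MSC in blue and EV in orange, with 1 symbol per pig and horizontal bars for the means. The groups do not overlap for miR-99a to miR-100 and for miR-99b to miR-99a.

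The let-7 miRNAs of the same clusters overlapped between the groups in their summed level. let-7a, let-7c and let-7e together were at 65919, 57699 and 6956 CPM in MSC and at 38989, 24494 and 37073 CPM in EV. The let-7a entry kept, the one with the largest total, was that of precursor let-7a-2 and not of MIRLET7A-1 in the cluster. With 1 entry per name, reads shared with other precursors are not in this sum. The log2 fold changes were -0.45 for let-7a, -0.54 for let-7c and -1.53 for let-7e, with adjusted p-values of 0.769, 0.725 and 0.260 from edgeR. let-7e, which lies between MIR125A and MIR99B, was at 1126, 634 and 5134 CPM in EV, highest in the library where miR-125a was highest and miR-99b was not.

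Likeness of pattern was measured as the root mean square difference between centred log2(CPM + 1) values over the 6 libraries, among the 47 other miRNAs with over 3 counts in every library. miR-100 and miR-10a-5p were each other's nearest (0.53, against a median of 1.59 and 1.60 over all 47). The nearest to miR-99b was miR-140-3p (0.40), to miR-99a miR-22-3p (0.87), to miR-125b miR-221-3p (0.88) and to miR-10b let-7f (0.91). Points share their library, depth and scaling, and the values are a description.

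MSC and EV of pigs with the same labels were also sequenced for mRNA, which allowed the HOX neighbours and described targets of the group to be read. Their titles number the pigs differently, so the mRNA libraries need not come from the same preparations. In all 53 genes were listed, 46 had an entry under their symbol and 32 passed the filter on low reads. The spans of several overlap other entries, some with more reads than their own. IGF1R had 437 reads against 11527 on the overlapping entry, and ERBB3 95 against 31587 on 8 entries. With edgeR's quasi-likelihood test over 12392 entries, 0 of the 32 passed an adjusted p-value of 0.05 with a fold change over 2, as did 0% of all entries. By the unadjusted thresholds, 1 was higher (against 5.55% of all entries) and 0 were lower (against 3.57%).

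The HOX genes beside the miR-10 genes, which encode transcription factors of the body axis, had values below 0 in the fit on all libraries. The log2 fold changes were -0.78 for HOXB3, -0.55 for HOXB4, -0.17 for HOXD3 and -0.32 for HOXD4, with a median of -0.44 against -0.02 over all entries. HOXB3 had 192, 317 and 302 reads in MSC and 209, 139 and 126 in EV, so its groups overlapped in reads. HOXD3 and HOXD4 were higher in EV in 2 of 3 pigs, and with 1 library left out their values ranged from -0.42 to 0.42 and from -0.58 to 0.17. None of the 4 passed the thresholds, HOXB5 had too few reads and HOXD8 had no entry under that symbol.

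Of 16 described targets of miR-10, 7 were tested and 0 passed, with a median log2 fold change of 0.26. The 3 with the most reads were NF1, a brake on RAS signalling, BCL6, a transcriptional repressor, and USF2, a transcription factor. NF1 had 3801, 1423 and 3002 reads in MSC and 4174, 5722 and 5398 in EV, higher in every EV library (log2 fold change 0.97 ± 0.35 SE, adjusted p = 0.274, edgeR). With the pig as a block its value was 1.03, past the unadjusted thresholds (unadjusted p = 0.0181, adjusted p = 0.177, edgeR). BCL6 was at 0.53 ± 0.39 and USF2 at -0.32 ± 0.35 (SE). USF2 had 12866 reads in all, and its span overlaps an entry that held 14423. TFAP2C, at 0 reads, overlaps entries that held 2126.

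Of 12 described targets of miR-99 and miR-100, 11 were tested, with a median of 0.15, and 1 was higher by the unadjusted thresholds. PPP3CA, a catalytic subunit of the phosphatase calcineurin, had 200, 91 and 198 reads in MSC and 338, 509 and 314 in EV, so each EV library was above each MSC library. Its log2 fold change was 1.29 ± 0.32 (SE), with an unadjusted p-value of 0.00446 and an adjusted p-value of 0.219 from edgeR (0.0175 from DESeq2), and its span overlaps another entry that held 488 reads. The 3 with the most reads were the chromatin remodeller SMARCA5 (0.79 ± 0.41), the phosphatase CTDSPL (-0.63 ± 0.40) and BAZ2A, a silencer of ribosomal RNA genes (0.45 ± 0.23, log2 fold change ± SE).

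The mitotic kinase PLK1, of the same list, differed with the pig as a block. Its TMM-scaled level was 48.6, 9.09 and 40.2 CPM in the MSC of the 3 pigs and 15.7, 1.64 and 11.3 CPM in their EV, lower in EV in 3 of 3 pigs although the groups overlapped. The log2 fold change was -1.77 ± 0.84 (SE; adjusted p = 0.337, edgeR) without the block and -1.94 with it (adjusted p = 0.0348, edgeR). MTOR, the kinase at the centre of growth control and the best known target of this family, was chosen for mention after its values were seen. It had 2068, 1380 and 1643 reads in MSC and 2050, 2282 and 1176 in EV, with a log2 fold change of 0.12 ± 0.25 (SE).

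Of 20 described targets of miR-125, 10 were tested and 0 passed, with a median of -0.19, while 6 had no entry under their symbol and 4 too few reads. Among the latter, LIN28A and STAT3 were at 0 but overlap entries that held 1408 and 4130 reads. The 3 with the most reads were the survival factor MCL1 (0.36 ± 0.25), the Hedgehog signal transducer SMO (-0.55 ± 0.24) and the repressor PRDM1 (1.50 ± 0.70, log2 fold change ± SE). PRDM1 had 359, 796 and 181 reads in MSC and 646, 2685 and 721 in EV, so its groups overlapped, while it was higher in EV in 3 of 3 pigs. The fit with the pig as a block gave 1.55 on the log2 scale, past the unadjusted thresholds but not the adjusted one (unadjusted p = 0.000791, adjusted p = 0.0563, edgeR). Described targets come from work on other species and tissues, and no target sites were looked for here.

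**Figure D5:**
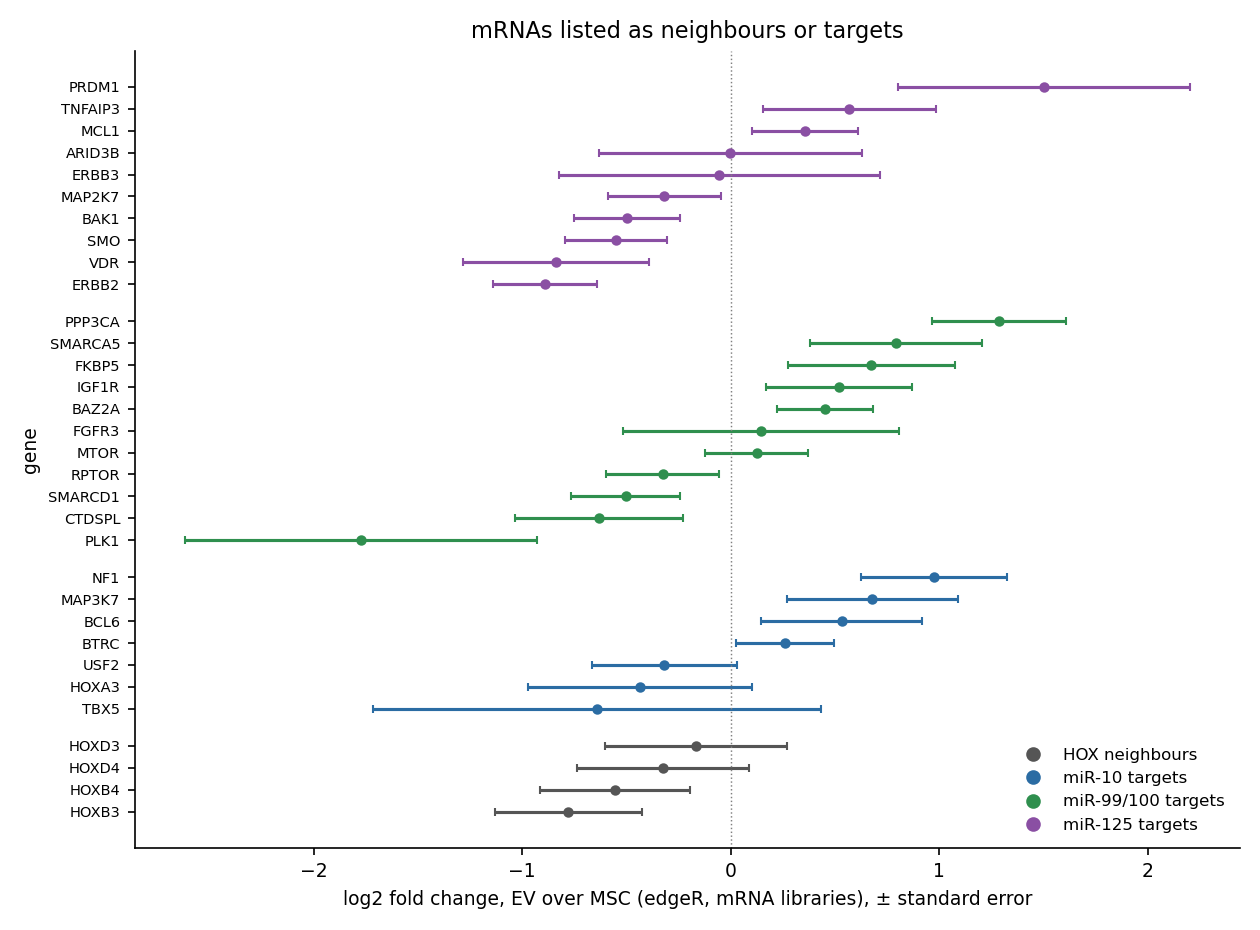
log2 fold change of EV over MSC ± SE (x axis, edgeR on the mRNA libraries) for the 32 listed genes that were tested (y axis), coloured by list. PPP3CA (1.29) is the gene past the unadjusted thresholds, and PLK1 has the lowest value (-1.77).

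Markers of other cells were low in the mRNA libraries, with exceptions. VWF had 0 reads and PTPRC 2 to 10 reads in each library, ADIPOQ, PLIN1, KDR, CD34 and ITGAM also had too few reads to be tested, and CDH5 and FABP4 had no entry. PECAM1, an endothelial marker, had 215, 111 and 114 reads in MSC and 78, 20 and 31 in EV (log2 fold change -1.71 ± 0.54 SE, unadjusted p = 0.0147, adjusted p = 0.249, edgeR). CD14, a myeloid marker, had 416 to 771 reads in each library, and the part of these markers in the values above was not tested.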

How the data were processed

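Counts per mature miRNA and precursor were deposited by the authors in the form of expected counts from CAP-miRSeq, in which reads that match several precursors are shared in fractions, and as CPM scaled to the library total. Raw read counts per gene were deposited by the authors for mRNA (TopHat and featureCounts per the paper, build susScr3 and HTSeq per the labels). RPKM columns were not used, and 3 gene entries shifted by a column were left out.

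For each mature name the precursor entry with the largest total was kept, expected counts were rounded, and EV were compared with MSC by edgeR 4.0.16 in R 4.3.3 (TMM, filterByExpr, quasi-likelihood test, Benjamini-Hochberg adjustment over all features). The thresholds were a fold change over 2 and an adjusted (or unadjusted) p-value under 0.05. Shares and ratios were compared by two-sided exact permutation tests (SciPy 1.17.1), and intervals are exact binomial. A count of 0 was bounded by 3 counts. The fits were tested on simulated data. Alternatives were DESeq2 1.42.0, limma 3.58.1, other scalings and filters, miR-21 left out, summed entries, the pig as a block and each library left out.

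Named were all members, the let-7 of their clusters, miR-21, the nearest miRNA to each member, all HOX neighbours, targets past the unadjusted thresholds and the 3 targets of each list with the highest mean count. The members, lists and tests were chosen with earlier results of these data known.

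Replicate numbers pair libraries by the pig labels within each assay. The titles number the pigs differently in the 2 assays, and those of small-RNA replicate 3 add a label, so no pairs were made across them. Deviations from the group mean correlated at -0.230, -0.0212 and -0.138 between small-RNA libraries of the same pig, and at 0.258, 0.386 and 0.411 between mRNA libraries. In the main comparisons, the p-values reflect the spread between 3 libraries per group. That spread holds differences between pigs and counting error together. For small RNA, it also holds any difference tied to the added label of replicate 3. The main fits did not use the pig labels, although the same 3 pigs are in both groups. Mature and precursor sequences were not used here.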

Additional observations from a re-analysis of the deposited data

How the results depend on the processing

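Against 2 members lower in EV by the unadjusted thresholds, 1 was lower with RLE factors, no scaling, upper quartile factors, or limma on log2(CPM + 1) or log2(CPM + 0.1) (miR-10a-3p), and 1 with DESeq2 or at least 10 counts in every library, where 6 members were tested (miR-99a). With the pig as a replicate block 0 were lower, and with 1 library left out 0 to 3 (miR-125a the third). Past the adjusted threshold, limma called 1 lower with either pseudocount, and leaving out 1 library gave 0 to 1 higher and 0 to 2 lower (0 to 1 higher unadjusted). EV replicate 3 decides these counts: without it 1 member was higher (miR-10b) and 2 were lower (miR-10a-3p, miR-125a) after adjustment. The median of the 243 miRNAs then tested was -6.39, and the shares of all miRNAs called in these alternatives are not given here. Without EV replicates 2 and 3, an alternative chosen after seeing the data that leaves a lone EV library assumed to vary like the MSC, 2 were higher and 1 lower adjusted, and 2 higher and 4 lower unadjusted. The causes of these changes were not tested.

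Signs turned for miR-125a (0.12 with RLE factors or DESeq2, 0.69 unscaled, -3.68 to 0.15 with 1 library left out), for miR-100 (0.23 unscaled, 0.91 upper quartile, 0.11 with limma at either pseudocount, -1.30 to 0.10 with 1 library left out, 0.071 without EV replicates 2 and 3), for miR-125b (0.13 unscaled, 0.83 upper quartile) and for miR-10a-5p (0.78 upper quartile, 0.15 without EV replicates 2 and 3). The share turned to -0.39 without miR-21. With 1 library left out, miR-10a-5p to miR-10b ranged from -2.11 to 1.14 and miR-100 to miR-125b from -0.60 to 1.75. miR-99a, miR-99b and miR-10b and the other 3 ratios kept their sign in every alternative run. The sign of miR-10a-3p, tested in 15 of the 19 alternative fits, was fixed by its 0 counts in every EV library. These signs are relative to 0. With at least 10 counts in every library, miR-10b (0.41) and miR-99b (0.53) lay below the median of 0.54.

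Of the listed mRNAs, the unadjusted counts were 2 higher and 1 lower with DESeq2 or no filter, 2 higher unscaled, 3 higher (PPP3CA, NF1, PRDM1) and 1 lower (PLK1) with the pig as a replicate block, and 1 to 3 higher and 0 to 2 lower with 1 library left out. After adjustment, DESeq2 called 1 higher (PPP3CA) and the replicate block 1 lower (PLK1). The shares of all entries called in these alternatives are not given here. The block changed no other call, and the paired permutation tests of shares and ratios could make none, since 3 pairs cannot give a p-value under 0.25.

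Depth limits EV replicates 2 and 3 (under 20000 counts each), in which 44 to 1224 counts carry the values of miR-99a and miR-100 and 1 count that of miR-125a. Leaving out an MSC library removed miR-10a-3p from the test.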
